A study of Mus musculus with 6 samples.

Results

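The miRNAs described here are miR-23a-3p, miR-23b-3p, miR-27a-3p, miR-27b-3p and miR-24-3p, the main products of the miR-23, miR-27 and miR-24 clusters, in mouse white adipose tissue (WAT). They were chosen by name, as the 5 rows with the miRBase mouse identifiers MIMAT0000532, MIMAT0000125, MIMAT0000537, MIMAT0000126 and MIMAT0000219 among the 707 mature miRNAs counted, and all 5 were found. The rule itself uses no measured values, but the members were chosen with earlier results of these data known. The term anti-adipogenic in their usual description refers to other work, and miRNA counts alone do not test it.

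A miRNA is cut from a hairpin RNA and pairs through its seed, bases 2 to 8 from the 5′ end, with sites in messenger RNAs, which lowers the stability or translation of those messengers. Each of the clusters is transcribed as one long RNA that holds a miR-23, a miR-27 and a miR-24 hairpin. In fat, miR-27a and miR-27b are known for restraining the maturation of adipocytes by acting on Pparg, the nuclear receptor that directs the adipocyte programme. The clusters are also known from endothelium, where they act in blood vessel growth.

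The data are 3 small RNA libraries from mice kept under chronic intermittent hypoxia (CIH) and 3 from control mice, all of them male and ApoE-deficient. CIH models obstructive sleep apnea, and in these mice oxygen fell from 21% to about 6% within 60 s and returned within the next 60 s, over 8 weeks. Both groups lacked apolipoprotein E, which clears lipoproteins from blood, so no group with a functional ApoE gene was part of the comparison. The labels give the tissue as white adipose tissue without a depot, and they give no age.

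The mature sequences are shown to mark which members share a seed and could act on the same sites. They are from RefSeq (GRCm38.p6), where 4 of the 5 members were matched, and the seed is in capitals.
miR-23a-3p: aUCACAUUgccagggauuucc
miR-27a-3p: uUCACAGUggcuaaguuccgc
miR-27b-3p: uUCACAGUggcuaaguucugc
miR-24-3p: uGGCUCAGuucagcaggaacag
The remaining member is miR-23b-3p, whose sequence was not matched, so its seed was not compared with that of miR-23a-3p or any other member. The seed of miR-27a-3p and miR-27b-3p was the same, and the 21 bases of these miRNAs differed once, at C19U (miR-27a first, positions counted from 1 at the 5′ end). Among the 1679 mature miRNA names in the RefSeq table, no name other than miR-27a-3p and miR-27b-3p carried UCACAGU. The seeds of miR-23a-3p and miR-27a-3p also differed at 1 of 7 bases, at U7G. The seed of miR-24-3p was unrelated to both, and miR-5124b, miR-6369, miR-6410 and miR-6413 carried the same 7 bases.

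The members come from 2 places in the genome. Mir23a, Mir27a and Mir24-2 lie on chr8:84208518-84208921 (GRCm38, plus strand), a span of 404 bases, and no host gene is annotated around Mir23a or Mir27a. The end of Mir24-2 overlaps the start of an exon of the long noncoding RNA gene Gm26532 on the same strand. Mir23b, Mir27b and Mir24-1 lie on chr13:63300484-63301275 (plus strand), a span of 792 bases, within the protein-coding gene 2010111I01Rik (Aopep), which encodes an aminopeptidase. In the GENCODE annotation Mir23b is in an intron of this gene, while Mir27b and Mir24-1 overlap exons of some of its transcripts. On both chromosomes a Mir3074 hairpin is annotated on the strand opposite to the miR-24 hairpin.

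**Figure D1:**
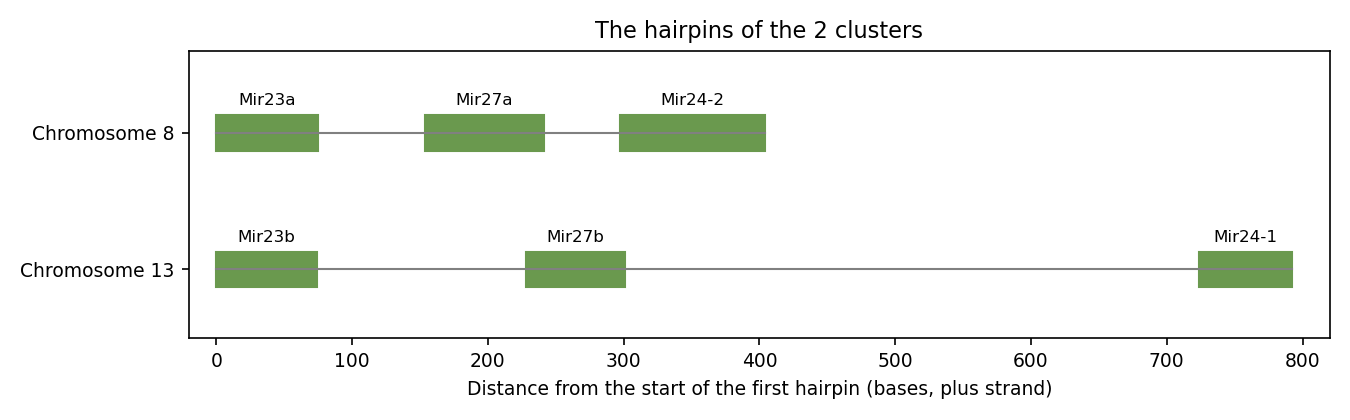
The hairpins of the 2 clusters are drawn to scale as boxes along the distance in bases from the start of the first hairpin, with chromosome 8 above and chromosome 13 below. The order miR-23, miR-27, miR-24 is the same on both, and the chromosome 13 cluster is the longer one, with 792 against 404 bases.

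The hairpins of miR-24 are shown because they yield the same mature miRNA, in capitals, from different surroundings.
Mir24-2: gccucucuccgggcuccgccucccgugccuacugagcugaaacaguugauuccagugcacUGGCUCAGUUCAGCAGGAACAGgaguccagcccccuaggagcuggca
Mir24-1: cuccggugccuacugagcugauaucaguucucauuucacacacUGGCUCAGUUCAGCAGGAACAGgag
A read of miR-24-3p therefore does not tell the chromosome 8 cluster from the chromosome 13 cluster, and its count is the sum over both. The miR-23 and miR-27 counts carry the information on the separate clusters. miR-27a and miR-27b reads are told apart by the single base given above. How reads that match both were counted is not given in the sources used here.

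The seed complements were looked up in the annotated 3′ ends of messenger RNAs, on the transcript strand only, to show what the members could pair with. That of miR-23 was taken from miR-23a-3p. The miR-27 complement ACTGTGA was found in 16.8% of the 20866 genes with such an end, the miR-23 complement AATGTGA in 15.8% and the miR-24 complement CTGAGCC in 16.9%. Of 10 adipose genes examined (Pparg, Cebpa, Cebpb, Rxra, Prdm16, Phb, Lpl, Adipoq, Fabp4 and Creb1), 6 held the miR-27 complement, 3 the miR-23 complement and 3 the miR-24 complement. These genes were picked by hand as known adipose regulators or products, and no test was made. Pparg, on which miR-27 is known to act, is among them. The 6 of 10 therefore does not measure a preference of miR-27 for adipose genes. The match in Pparg is at chr6:115490283-115490289 (plus strand), shown in capitals within the window chr6:115490269-115490294.
Pparg: cacctaagaaatttACTGTGAaaaag
Lpl, which encodes lipoprotein lipase, held all 3 complements. A match describes the letters and not a working site, and the target messengers were not measured here.

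The libraries differed in depth and in likeness to each other. The totals ran from 636963 to 4783768 counts, and Control 2 was the deepest. Across the 633 miRNAs whose counts over the 6 libraries added up to 10 or more, Control 1 and Control 2 stood apart from the other 4 libraries. Control 3 correlated at 0.958 to 0.974 with the CIH libraries and at 0.595 and 0.661 with Control 1 and Control 2 (Pearson's r across miRNAs of log2 CPM, counts per 1000000 counts of a library, as a description over miRNAs that share their libraries). Control 1 and Control 2 also held at least 1 count for fewer miRNAs, 487 and 552 of the 707, than the other 4 libraries, with 631 to 649. The factors of the TMM normalization, which corrects library totals for differences in composition, ran from 0.575 in Control 1 to 1.45 in CIH 3. Because of this span the levels of the members are given on both scales. The labelled tissue was not checked against marker miRNAs, because the counts are listed by identifier and the files do not pair identifiers with names.

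The 5 members together took 0.814%, 1.64% and 0.893% of the counts in Control 1, 2 and 3, and 0.858%, 0.814% and 0.942% in CIH 1, 2 and 3. The widest 95% exact binomial interval was that of CIH 3, from 0.918% to 0.966%, and such intervals cover counting error only. Control 2 stood alone, and the other 5 libraries lay between 0.814% and 0.942%. Counting error was small for every member, since the lowest count of any of them was 367 (miR-23a-3p in CIH 2).

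Of the chromosome 13 members, miR-27b-3p was the most abundant member in 6 of 6 libraries and ranked between 18 and 29 among all miRNAs of a library. Scaled by the library total, its level in CPM was 4451, 5749 and 5605 in Control 1, 2 and 3 and 5468, 4879 and 5240 in CIH 1, 2 and 3. All 6 values lay within 1.29-fold of each other, and the groups overlapped. On the TMM scale its level was 7739, 6635 and 4006 CPM in the control libraries, against 6929, 3887 and 3621 CPM in the CIH libraries, a span of 2.14-fold. On that scale Control 1, Control 2 and CIH 1, the 3 libraries with TMM factors below 1, were high, and the other 3 were low. Its share among the counts of the 5 members ran from 35.1% in Control 2 (95% exact binomial interval 34.8% to 35.5%) to 63.7% in CIH 1 (62.9% to 64.5%).

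miR-23b-3p, from the same transcript, was far less abundant, at 882, 775 and 575 CPM of the library total in the control libraries, against 667, 564 and 609 in the CIH libraries. The 2 highest values were those of Control 1 and Control 2, and Control 3 lay among the CIH libraries. TMM scaling gave 1534, 894 and 411 CPM in the control libraries, against 846, 449 and 421 in the CIH libraries. miR-27b-3p exceeded it by 5.05 to 9.75 times within a library.

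Of the chromosome 8 members, miR-23a-3p varied most. Its level was 1095, 3916 and 497 CPM of the library total in the control libraries, against 553, 498 and 683 in the CIH libraries. Control 1 and Control 2 were above every CIH library, while Control 3 was level with the lowest of them, CIH 2. On the TMM scale the values were 1904, 4519 and 355 CPM against 700, 397 and 472 CPM, with the control libraries 12.7-fold apart and the CIH libraries 1.77-fold apart. Its rank in a library moved from 26 in Control 2 to 113 in CIH 2.

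miR-27a-3p, whose hairpin starts 154 bases after that of miR-23a, had another pattern. Its level was 338, 2145 and 1247 CPM of the library total in the control libraries, against 893, 1233 and 1463 in the CIH libraries. The lowest and the highest of the 6 values were both control libraries, Control 1 and Control 2, and the CIH values and Control 3 lay between them. On the TMM scale the CIH libraries, at 1132, 982 and 1011 CPM, were within 1.15-fold of each other, and the control libraries, at 588, 2476 and 891 CPM, were 4.21-fold apart.

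miR-24-3p, the product of both clusters, was at 1372, 3785 and 1004 CPM of the library total in the control libraries, against 999, 964 and 1422 in the CIH libraries. Control 2 was high, and the other 5 libraries lay between 964 and 1422. The TMM values were 2385, 4369 and 717 CPM in the control libraries, against 1266, 768 and 983 in the CIH libraries.

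**Figure D2:**
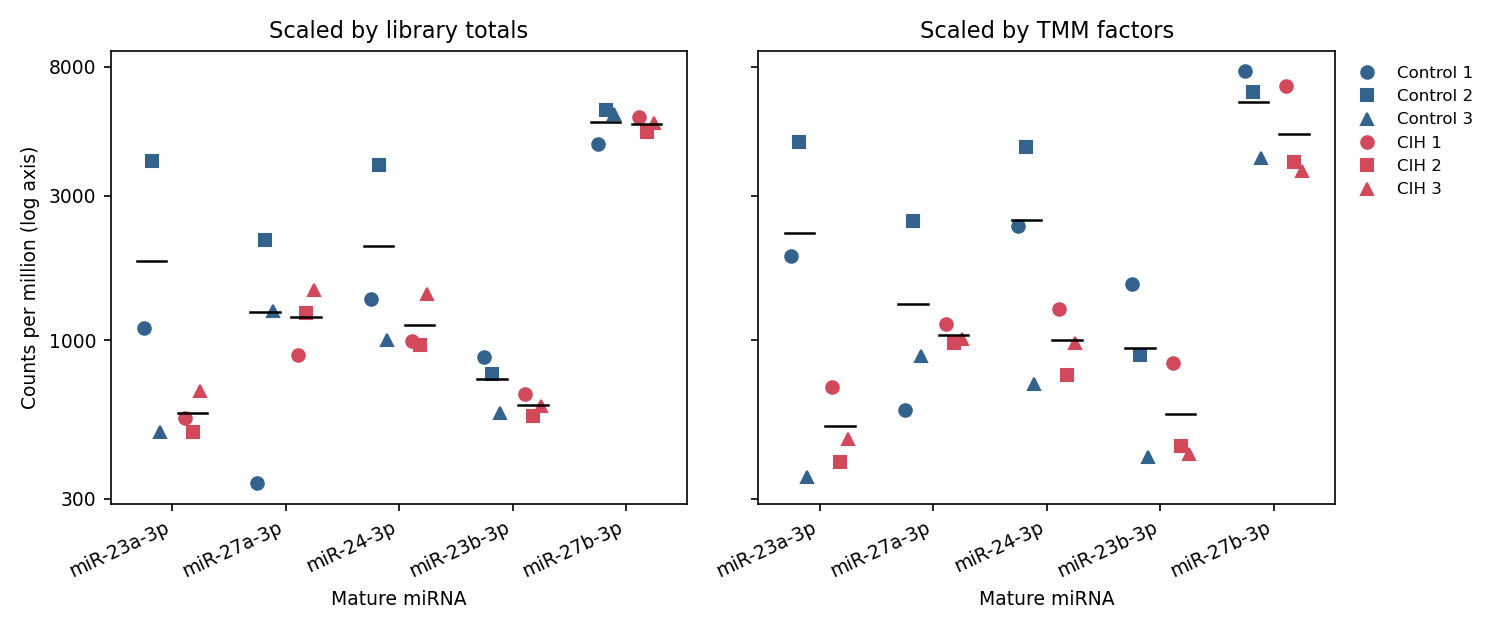
CPM on a log axis for each member, scaled by library totals (left) and by TMM factors (right), with 1 point per library (blue Control, red CIH, shape by replicate number) and a black bar at the group mean. Control 2 is the highest point for miR-23a-3p, miR-27a-3p and miR-24-3p on both scales, while miR-27b-3p spans 1.29-fold on the left and 2.14-fold on the right.

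The order of the levels within a library was the same in all 6 libraries only for its top member. miR-27b-3p exceeded each other member in 6 of 6 libraries, and miR-24-3p exceeded miR-23b-3p in 6 of 6. miR-24-3p exceeded miR-27a-3p in 3 of 6 libraries, miR-27a-3p exceeded miR-23a-3p in 4 of 6 and miR-23b-3p in 5 of 6, and miR-23a-3p exceeded miR-23b-3p in 3 of 6, so these neighbours had no constant order. Apart from miR-23b-3p, whose sequence was not matched, the members are 21 or 22 bases long, so among these length does not enter. Adapters are ligated to different small RNAs with unequal efficiency, and levels of different miRNAs carry that too.

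The steadiness of each member over the 6 libraries was set against that of all 141 miRNAs that reached 50 counts in each library. With library totals, the SD of log2 CPM was 0.14 for miR-27b-3p, the lowest of the 141, and 0.26 for miR-23b-3p, the fifth lowest. The SD was 0.75 for miR-24-3p, 0.91 for miR-27a-3p and 1.16 for miR-23a-3p, with a median of 0.91 over the 141. With TMM factors the rank of miR-27b-3p was 36 (SD 0.49) and that of miR-23b-3p 68 (SD 0.77). On that scale miR-27a-3p was at rank 60 (SD 0.68), steadier than miR-23b-3p. There miR-24-3p was at rank 96 (SD 1.02) and miR-23a-3p at rank 121 (SD 1.47), with a median of 0.81. The chromosome 13 members thus ranked as steadiest only on one of the scales, while miR-23a-3p had the largest SD of the 5 on both. No test was made of these ranks.

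**Figure D3:**
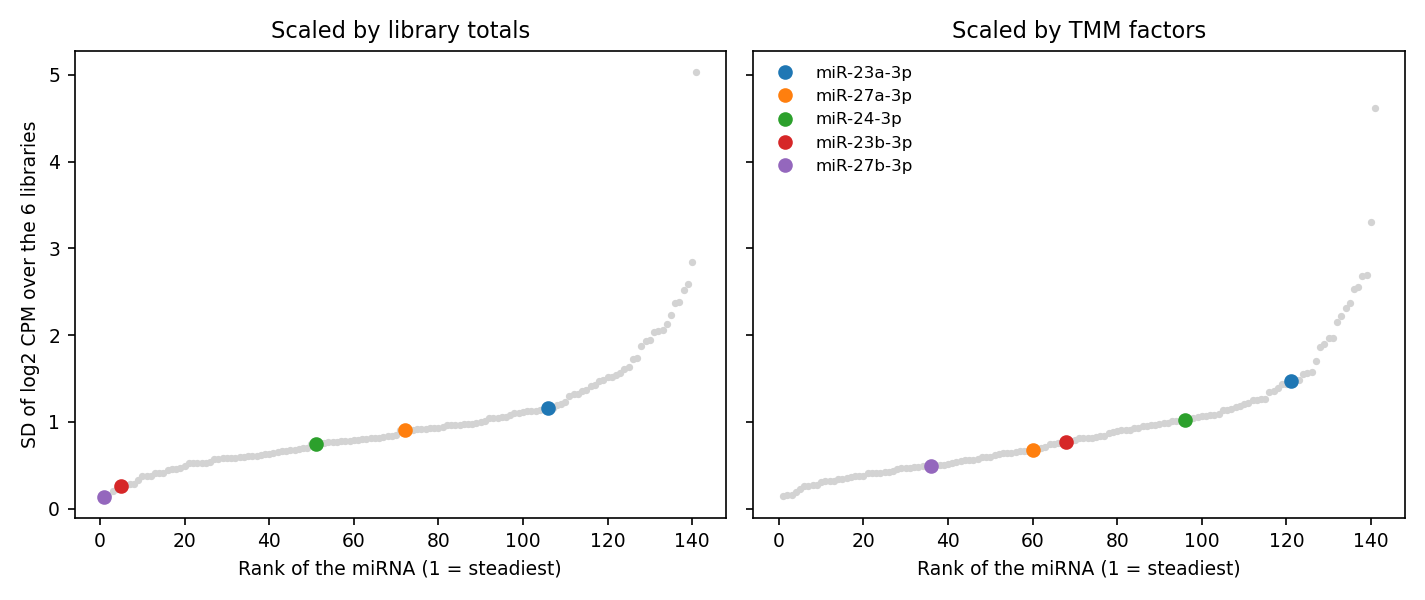
The SD of log2 CPM over the 6 libraries is plotted against its rank among the 141 miRNAs that reached 50 counts in each library (grey), with the members in colour. miR-27b-3p is at rank 1 with library totals (left) and at rank 36 with TMM factors (right), and miR-23a-3p is the highest member in both.

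The comparison of CIH with control asks whether the hypoxia changed the members in fat. All 5 fitted levels were lower in the CIH group, and for none of them did the difference pass the test. miR-23a-3p had the largest difference, at 523 ± 158 TMM-normalized CPM under CIH against 2260 ± 2105 in controls (mean ± SD, n = 3 each). The groups overlapped for all 5 members on both scales, because at least 1 control library lay within or below the range of the CIH libraries. Groups without overlap were found for 8.06% of the 633 miRNAs tested.

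The log2 fold change of miR-23a-3p, CIH over control, was -2.11 (standard error 0.98, 95% interval -4.44 to 0.22, unadjusted p = 0.0692, adjusted p = 0.882 by the quasi-likelihood test of edgeR). That of miR-24-3p was -1.31 (standard error 0.80, 95% interval -3.22 to 0.60, adjusted p = 0.882 from the same edgeR test). For miR-23b-3p it was -0.73, with a 95% interval of -2.45 to 0.997. For miR-27b-3p it was -0.35, with an interval of -1.89 to 1.19, and for miR-27a-3p it was -0.34, with an interval of -2.07 to 1.39. The adjusted p was 0.882 for miR-23b-3p and 0.889 for both miR-27 members (edgeR). For each of the 5 miRNAs the interval leaves room for a fall to 0.270 of the control level, and also for a rise of 1.17-fold in miR-23a-3p and of 2.62-fold in miR-27a-3p.

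An adjusted p under 0.05 was reached by 0 of the 5 members and by 0 of the 633 miRNAs tested (0%) with edgeR. An unadjusted p under 0.05 was reached by 0 of the 5 and by 2.53% of the 633. miR-23a-3p, alone among the 5, reached an unadjusted p under 0.05 with DESeq2 (adjusted p = 0.866), with upper-quartile factors (adjusted p = 0.561, edgeR) and with the filter of 10 counts in every library (adjusted p = 0.727, edgeR), and limma voom gave no member one. The median log2 fold change of the 5 was -0.73, beside 0.07 over all miRNAs tested, of which 47.6% were below 0. With library totals in place of TMM factors these medians were -0.28 and 0.33, all 5 members were still below 0, and miR-27b-3p was at -0.020. With upper-quartile factors the medians were -1.45 and -0.52, miR-27a-3p was at -1.07 and miR-27b-3p at -1.04. In the labels, nothing beyond the replicate number says that the libraries of a group came from separate animals. The tests take the library as the unit.

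The shared direction of the 5 members below 0 depended on Control 1 and Control 2. Without Control 2 alone miR-27a-3p turned above 0, and without both libraries all 5 did. These libraries did not bear on each member alike. Without Control 1 the log2 fold change was -0.69 for miR-27a-3p and -0.19 for miR-23b-3p, beside -0.34 and -0.73 with all libraries. For miR-23b-3p it was -0.70 without Control 2. Without Control 3, miR-23a-3p passed the test, with a log2 fold change of -2.64 and an adjusted p of 0.0261 (edgeR). It was the 1 member of 5 called there, where 19.2% of the 614 miRNAs tested were called and 2.61% were called as lower under CIH. miR-24-3p had an adjusted p of 0.0641 in that fit (edgeR). Without Control 2, the log2 fold change of miR-23a-3p was -1.04 (adjusted p = 0.967, edgeR) and that of miR-27a-3p turned to 0.56. Without Control 1 and Control 2 together, a fit chosen after seeing the data in which Control 3 alone stands for the controls and is assumed to vary like the CIH libraries, all 5 members turned to between 0.30 and 0.62, where 58.4% of the miRNAs tested were above 0, and none passed the test (lowest adjusted p = 0.959, edgeR). Whether the depth of Control 2, or the low number of miRNAs detected in Control 1 and Control 2, had a part in these differences was not tested. In bulk tissue, fewer cells of a type and less of the miRNA per cell cannot be told apart.

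**Figure D4:**
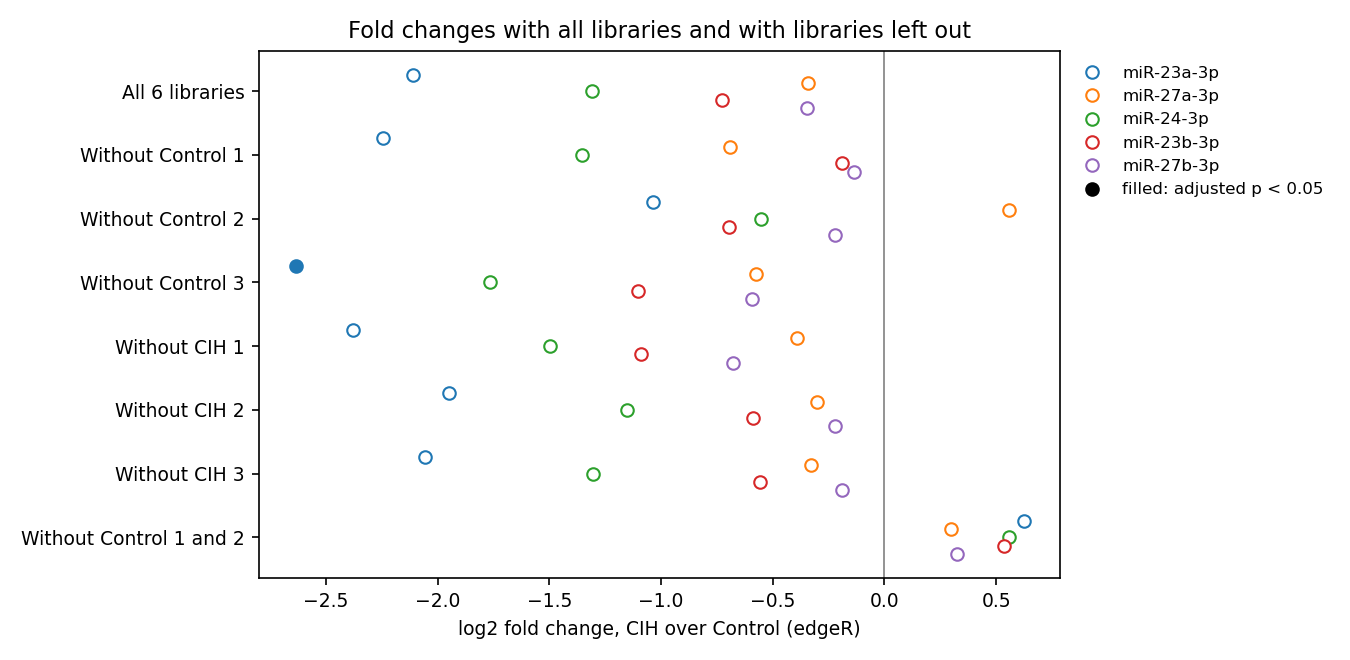
Log2 fold changes of the 5 members, CIH over Control, from edgeR fits with all 6 libraries (top row), with each library left out in turn and without Control 1 and Control 2 together (bottom row), with a filled point where the adjusted p was under 0.05. The only filled point is miR-23a-3p without Control 3, at -2.64, and all 5 points are above 0 in the bottom row.

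Ratios of counts within a library need no library size and compare the clusters and their members directly. The balance of the clusters, (miR-23a + miR-27a)/(miR-23b + miR-27b), was 0.269, 0.929 and 0.282 in Control 1, 2 and 3, and 0.236, 0.318 and 0.367 in CIH 1, 2 and 3. The balance leaves out miR-24-3p, which comes from both clusters. Most of its chromosome 13 counts were miR-27b-3p, whereas for miR-23 alone miR-23a-3p exceeded miR-23b-3p in 3 of 6 libraries. In the balance, the chromosome 13 members had more counts in each library, and only in Control 2 were the sums nearly even. The log2 difference between the groups, CIH minus control, was -0.45 (standard error 0.61, two-sided exact permutation test, p = 0.7, where 3 libraries against 3 cannot give less than 0.1). It was 0.13 without Control 2.

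The 2 miR-23 paralogs were counted nearly evenly in most libraries. The ratio miR-23a/miR-23b was 1.24, 5.05 and 0.864 in the control libraries, against 0.828, 0.882 and 1.12 in the CIH libraries, with Control 2 far above the rest. The ratio miR-27a/miR-27b was 0.0760, 0.373 and 0.223 in the control libraries, against 0.163, 0.253 and 0.279 in the CIH libraries. Here Control 1 was the lowest and Control 2 again the highest. The log2 difference between the groups was -0.91 (standard error 0.79) for miR-23a/miR-23b and 0.29 (standard error 0.72) for miR-27a/miR-27b, with p = 0.3 and 0.8 in the two-sided exact permutation test. Without Control 2 the difference was -0.15 for miR-23a/miR-23b, and for miR-27a/miR-27b it was 0.80 without Control 2 and -0.35 without Control 1.

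The ratio of members cut from one transcript spanned less on chromosome 13 than on chromosome 8. The ratio miR-27b/miR-23b was 8.19, 8.65 and 8.60 in the CIH libraries, within 1.06-fold of each other, and 5.05, 7.42 and 9.75 in the control libraries, within 1.93-fold. The ratio miR-27a/miR-23a was 1.62, 2.48 and 2.14 in the CIH libraries, and 0.309, 0.548 and 2.51 in the control libraries, an 8.13-fold span. miR-23a-3p outnumbered miR-27a-3p in Control 1 and Control 2, and miR-27a-3p was the more abundant one in Control 3 and in each CIH library. The log2 difference between the groups was 1.45 (standard error 0.92, two-sided exact permutation test, p = 0.4) for miR-27a/miR-23a and 0.25 (standard error 0.28, p = 0.6, same exact test) for miR-27b/miR-23b. Without Control 3 the difference was 2.32 for miR-27a/miR-23a, and without Control 1 it was 0.80, and -0.0042 for miR-27b/miR-23b. The difference in span between the clusters was not tested.

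miR-24-3p stayed close to the sum of both miR-23 miRNAs. The ratio miR-24/(miR-23a + miR-23b) was 0.694, 0.807 and 0.936 in the control libraries, against 0.819, 0.908 and 1.10 in the CIH libraries, a span of 1.35-fold and 1.34-fold. It differed by 0.21 between the groups on the log2 scale (standard error 0.18, two-sided exact permutation test, p = 0.4). After Benjamini-Hochberg adjustment over the 5 ratios of members, the p-values lay between 0.667 and 0.8 (exact permutation tests).

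**Figure D5:**
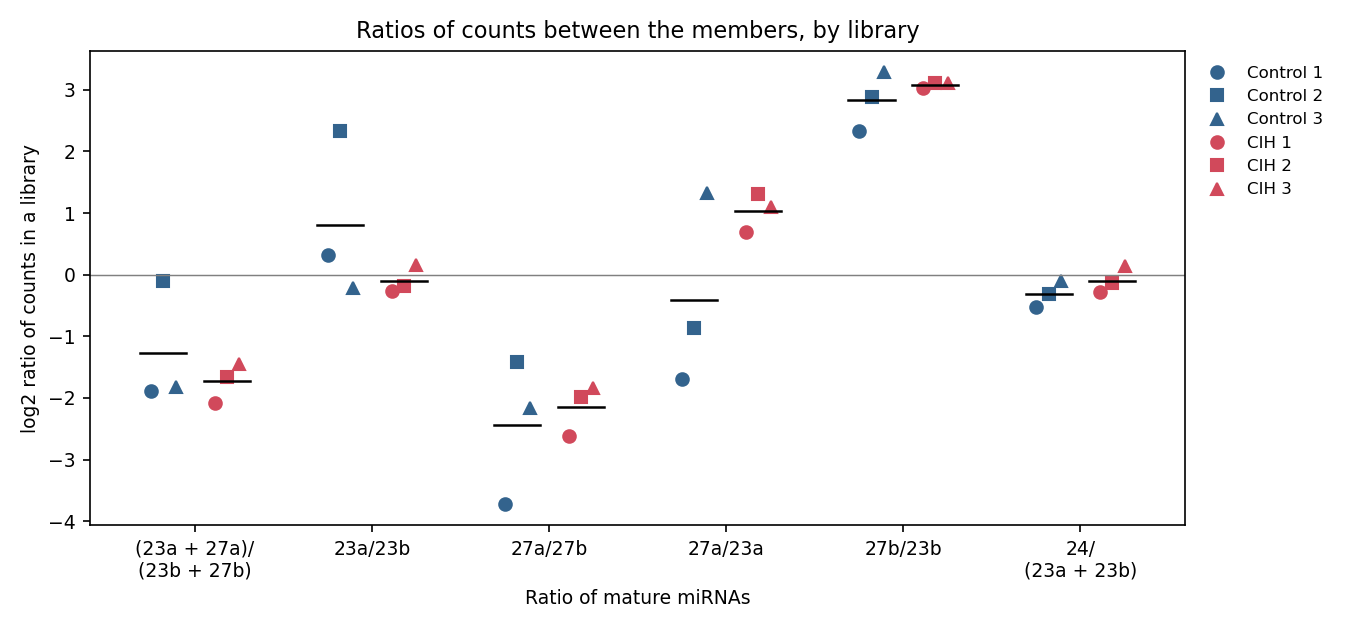
Log2 ratios of counts within each library (points, blue Control, red CIH, shape by replicate number) with the group mean as a black bar. The miR-27b/miR-23b and miR-24/(miR-23a + miR-23b) points lie close together, and the miR-27a/miR-23a points of Control 1 and Control 2 lie below those of the other 4 libraries.

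The miRNAs whose pattern was most like each member were found by the SD, over the 6 libraries, of the log2 ratio of the counts, among the 141 miRNAs that reached 50 counts in each library. A small SD means that the ratio of the counts was nearly constant. For miR-24-3p and miR-23a-3p the SD was 0.45, and of the 140 others miR-24-3p was at rank 2 from miR-23a-3p, and miR-23a-3p at rank 10 from miR-24-3p. For miR-23b-3p and miR-27b-3p it was 0.33, with miR-27b-3p at rank 5 from miR-23b-3p and miR-23b-3p at rank 10 from miR-27b-3p. For miR-23a-3p and miR-27a-3p, neighbours on chromosome 8, it was 1.28, with miR-27a-3p at rank 61 from miR-23a-3p and miR-23a-3p at rank 99 from miR-27a-3p. The median SD over the 140 was 1.39 from miR-23a-3p and 0.91 from miR-27a-3p. The non-member nearest to miR-23a-3p was MIMAT0000133, with an SD of 0.34, and the one nearest to miR-27a-3p was MIMAT0003453, with an SD of 0.17. For miR-23b-3p, miR-27b-3p and miR-24-3p the nearest non-members had SDs of 0.15, 0.21 and 0.27. The points share their libraries, with Control 1 and Control 2 apart from the rest, and no test was made.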

How the data were processed

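The authors deposited raw read counts per mature miRNA, without normalization. How they trimmed and aligned the reads, which miRNA database release they used and how they counted reads with several matches is not given in the sources used here, and they could move reads between near-identical miRNAs such as miR-27a and miR-27b. No member had counts identical to another miRNA in all 6 libraries. Libraries were assigned by their labels. The 633 miRNAs with at least 10 summed counts entered 1 fit in edgeR 4.0.16 under R 4.3.3. It used TMM factors, the group as sole covariate, the quasi-likelihood test and Benjamini-Hochberg adjustment over all 633. The script was first tested on simulated data in which no library was set apart from its group, unlike in these data. The standard error of a log2 fold change was its absolute value divided by the square root of the test's F statistic. Intervals came from the fold change, this standard error and the total degrees of freedom, so they are not independent of the p-values. For its statistics in general the study gives Student's unpaired test with a threshold of 0.05, without saying whether the sequencing counts were tested that way, and the unadjusted threshold used here is the same. Alternatives were DESeq2 1.42.0, limma 3.58.1 with voom, other scalings and filters, the replicate number as a block, and libraries left out. Ratios were tested over libraries by exact permutation with scipy 1.17.1.

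The members and lists were chosen with earlier results of these data known. The rule for named miRNAs took the 5 members, the other arms of their hairpins, miRNAs with the same seed, the 2 nearest non-members of each by the SD of the log2 ratio, miR-128-3p, miR-210-3p, miR-126a-3p, and the lowest p in each direction in lists of miRNAs that restrain or promote adipogenesis. Since the files do not pair identifiers with names, all but the members, and the lists of cell type markers, have no counts here, and 2 nearest non-members are given by identifier. Sequences are from RefSeq on GRCm38.p6, and annotations and transcript ends from GENCODE release M21 on GRCm38.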

Additional observations from a re-analysis of the deposited data

How the results depend on the processing

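With the original settings 0 members and 0 of all miRNAs had an adjusted p under 0.05, and 16 miRNAs had an unadjusted p under 0.05. The last number was 26 with DESeq2, 39 with upper-quartile factors, 8 with the filterByExpr filter, which tests 407 miRNAs, and 75 with limma voom. It was 11 with the filter of 10 counts in every library, which tests 238. With each library left out in turn it ran from 1 to 225, the number with an adjusted p under 0.05 from 0 to 118 and the number of members called from 0 to 1, with the upper ends without Control 3. Over the same 6 fits the log2 fold change ran from -2.64 to -1.04 for miR-23a-3p, from -1.76 to -0.55 for miR-24-3p, from -1.10 to -0.19 for miR-23b-3p, from -0.68 to -0.14 for miR-27b-3p and from -0.69 to 0.56 for miR-27a-3p, the last being above 0 without Control 2. The log2 group difference of the cluster balance ran from -0.76 to 0.13 and was 0.29 with miR-27 alone. That of miR-27a/miR-27b ran from -0.35 to 0.80 and that of miR-27b/miR-23b from -0.0042 to 0.47, both below 0 without Control 1. It ran from -1.42 to -0.15 for miR-23a/miR-23b, from 0.80 to 2.32 for miR-27a/miR-23a and from 0.097 to 0.32 for miR-24/(miR-23a + miR-23b). Without Control 1 and Control 2 together, which was added after seeing the data, the log2 fold changes were 0.62 for miR-23a-3p, 0.54 for miR-23b-3p, 0.30 for miR-27a-3p, 0.33 for miR-27b-3p and 0.56 for miR-24-3p. The ratio differences were then 0.096 for the cluster balance, 0.11 for miR-23a/miR-23b, -0.29 for miR-27a/miR-23a, -0.20 for miR-27b/miR-23b and -0.0014 for miR-24/(miR-23a + miR-23b). In the other settings of the fits across all miRNAs, the 5 log2 fold changes stayed below 0. The cause of the differences between settings was not tested.

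Replicate numbers 1 to 3 occur in both groups. Libraries with the same number deviated from their group means with correlations of 0.353, -0.116 and 0.0195, which does not show pairing. In the fit with a replicate block, 3 miRNAs had an unadjusted p under 0.05, 0 had an adjusted one, and the log2 fold change of miR-23a-3p was -1.50 (adjusted p = 0.833, edgeR).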
